A study of Bos taurus with 50 samples.

Results

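The genes described here encode the machinery that translates mRNA into protein: cytosolic ribosomal proteins, and the initiation and elongation factors that work with the ribosome. They were chosen from the study's own lists of differentially expressed genes, by symbols that begin with RPL, RPS, RPSA, EIF or EEF (the RPS6 kinases left out), so the values that chose them were the difference between CycW5 and NoCycW5 cows at week 5 and the change from week 5 to week 9 in NoCycW5 cows. The rule found 45 of the 18830 genes in the count table: 29 ribosomal protein genes (16 of the large and 13 of the small subunit, with 2 identifiers both named RPS6), 11 initiation factor genes and 5 elongation factor genes. Of the 45 genes, 17 were in both lists, 5 only in the week 5 list and 23 only in the week change list. All 13 ribosomal protein genes of the week 5 list were in the week change list too, whereas the 5 genes that stood in the week 5 list alone (EIF3D, EIF3E, EIF3F, EIF3H and EIF4B) were all initiation factors.

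A ribosome is built from a large and a small subunit, each an assembly of ribosomal RNA and many proteins that are made in matched amounts. Initiation factors bring the small subunit and the initiator tRNA to the mRNA; the eIF3 complex is the largest of them, and eIF4B and eIF4H assist the helicase that opens the start of the mRNA. Elongation factors deliver the aminoacyl-tRNA (the eEF1 complex) and move the ribosome along (eEF2). Most mRNA of ribosomal proteins, and those of several of these factors, begin with a pyrimidine tract that lets growth signals control their translation together. In the endometrium, the lining of the uterus, tissue is rebuilt after calving and is later remodelled in each estrous cycle under progesterone (P4) from the corpus luteum (CL).

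RNA came from endometrial biopsies of lactating primiparous Holstein x Jersey cows at week 5 and week 9 after calving, and 50 libraries were counted. CycW5 cows were cycling at week 5, with a CL and circulating P4 (10 libraries at week 5 and 10 at week 9), and NoCycW5 cows had neither a CL nor detectable P4 up to week 5 (12 and 11 libraries). CycNoP4 cows were cycling but without P4 when sampled at week 5 (4 and 3 libraries), and the study left them out of its comparisons. Every cow was then given gonadotropin-releasing hormone, a P4-releasing insert and prostaglandin F2α, which timed the week 9 biopsy to the luteal phase of a synchronized cycle in all groups. The labels do not link libraries to cows, so weeks were compared as unpaired groups, p-values measure the spread between libraries, and each library is called by its labelled number. Each library had 21592867 to 32813237 reads counted on genes. The tissue was checked with the estrogen receptor gene ESR1, which had 28.9 to 238 CPM (reads on the gene, scaled to a common library size) over all libraries; the identifiers of the other 2 tissue markers on the list, and of all stromal, muscle and leukocyte markers, were not paired with a symbol and were not analysed here. In a biopsy, fewer cells of a type and less RNA per cell cannot be told apart. Many ribosomal protein genes also have nearly identical processed copies, and reads may have been divided between them, which makes the values of single genes of this class uncertain.

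Levels are CPM after TMM scaling, which sets the libraries to a common scale. The 29 ribosomal protein genes together had 15690 to 21570 CPM at week 5 in the CycW5 cows (median 17420) and 18560 to 32420 CPM in the NoCycW5 cows (median 23930). The 4 CycNoP4 libraries of week 5 (libraries 51, 56, 58 and 64) had 19421, 19076, 22650 and 21245 CPM. All 4 therefore lay within the range of the NoCycW5 libraries, and 3 of them also within that of the CycW5 libraries. At week 9 the sum was 14570 to 21440 CPM in the CycW5 cows (median 17610), 15180 to 19680 CPM in the NoCycW5 cows (median 16050), and 14588, 15818 and 15512 CPM in the CycNoP4 cows (libraries 79, 88 and 94). The groups of week 9 thus overlapped, and 10 of the 11 NoCycW5 libraries of week 9 were below every NoCycW5 library of week 5. These genes took 1.98% to 3.13% of all counted reads at week 5 in the NoCycW5 cows and 1.49% to 1.98% at week 9.

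The 16 factor genes, taken as a sum, were likewise highest at week 5 in the NoCycW5 cows, though not each of them was. Their sum was 4864 to 7203 CPM at week 5 in the CycW5 cows (median 5413), 6077 to 10830 CPM in the NoCycW5 cows (median 7067), and 5523, 5538, 7627 and 6942 CPM in CycNoP4 libraries 51, 56, 58 and 64. At week 9 it was 5081 to 6015 CPM in the CycW5 cows (median 5461), 5041 to 6255 CPM in the NoCycW5 cows (median 5272), and 5106, 5667 and 5585 CPM in CycNoP4 libraries 79, 88 and 94. For every 100 CPM of ribosomal protein mRNA, the factors had 28.9 to 34.8 CPM at week 5 in the NoCycW5 cows and 29.01 to 33.9 CPM in the CycW5 cows. The ratio was 28.4 to 33.7 CPM in the CycNoP4 libraries of week 5 and had a median of 35.8 CPM in those of week 9, where all 3 libraries were above the 4 of week 5.

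**Figure D1:**
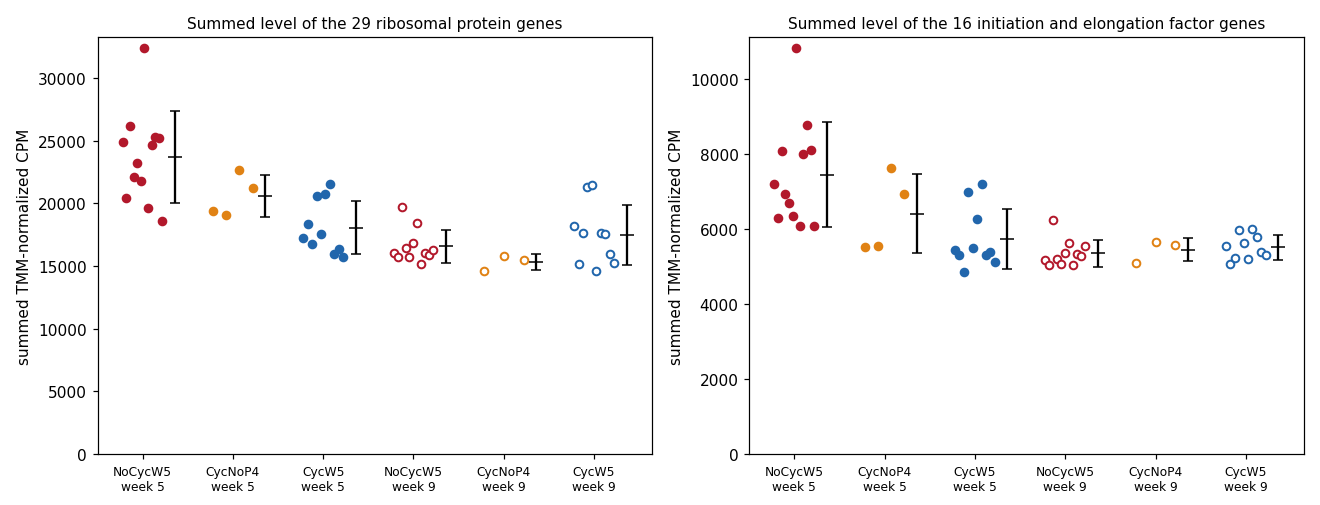
Summed level, in TMM-normalized CPM, of the 29 ribosomal protein genes (left) and the 16 initiation and elongation factor genes (right) in each of the 6 groups. Each point is a library (filled at week 5, open at week 9) and the bars give the mean and SD. The NoCycW5 libraries of week 5 reach 32420 CPM on the left and 10830 CPM on the right, above every other group.

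At week 5, the question was how the endometrium of cycling cows under P4 differed from that of cows that had not yet cycled. All 29 ribosomal protein genes were lower in the CycW5 cows (edgeR quasi-likelihood test, Benjamini-Hochberg adjusted P of 0.05 or less), where 11.1% of the 16120 genes tested were lower. Their median log2 fold change was -0.39 (range -0.63 to -0.29), against -0.02 over all genes tested. The study drew its lists from fewer cows than there are libraries here, and the labels do not say which, so the count describes the choice and is no test of it. The subunits did not part: the median was -0.41 for the 16 large subunit genes and -0.38 for the 13 small subunit genes. RPL13 and RPL14 were among the largest differences, at -0.48 ± 0.0975 (standard error) and -0.46 ± 0.0687, and the smallest were those of RPL11, RPLP1 and RPS27A, at -0.33, -0.31 and -0.29.

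RPL14 (ENSBTAG00000002038), a protein of the large subunit, had 750.6 to 1026 CPM in the CycW5 cows (median 838) and 1005 to 1609 CPM in the NoCycW5 cows (median 1184), so the groups met only at their edges. RPL19 (ENSBTAG00000002060), also of the large subunit, had 532 to 688 CPM (median 576) and 649 to 970.4 CPM (median 784), with a log2 fold change of -0.38 ± 0.0585. For none of the 45 genes did the CycW5 and NoCycW5 libraries of week 5 separate completely. The share of all genes that did was not counted, so this says nothing particular of the members. RPS6 is the small subunit protein that is phosphorylated when growth signals are active. Its identifier with the higher read count (ENSBTAG00000023462) had 514 to 841 CPM in the CycW5 cows (median 605) and 582 to 1142 CPM in the NoCycW5 cows (median 774), and the other (ENSBTAG00000005315) had 84.6 to 173 CPM (median 115) and 108 to 256 CPM (median 155). Both were lower in the CycW5 cows, at -0.33 ± 0.0917 and -0.45 ± 0.13.

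Initiation factors were less uniform. Of the 11, 8 were lower in the CycW5 cows, EIF2B2 was higher (14.5% of all genes tested were higher), and EIF1B and EIF5A2 did not pass the test. The 6 eIF3 subunits were all lower, by 0.22 (EIF3G) to 0.47 (EIF3E) on the log2 scale. EIF3E had 460.4 to 659 CPM in the CycW5 cows (median 543) and 588 to 1177 CPM in the NoCycW5 cows (median 730). Only the highest CycW5 libraries reached the lowest NoCycW5 libraries. EIF3F, with 121 to 171 CPM (median 133) against 143 to 245 CPM (median 184), differed by nearly as much, at -0.46 ± 0.0825. EIF3D and EIF3H were at -0.40 ± 0.0949 and -0.35 ± 0.0729, and EIF3K at -0.24 ± 0.0679. EIF4B was at -0.34 ± 0.0996 and EIF4H, which does similar work, at -0.13 ± 0.0449, the smallest difference among the genes that were lower.

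EIF2B2 encodes a subunit of eIF2B, which reloads the initiator factor eIF2 with GTP. It had 39.1 to 67.9 CPM in the CycW5 cows (median 51.1) and 38.6 to 48.0 CPM in the NoCycW5 cows (median 43.6), a log2 fold change of 0.25 ± 0.0878. The groups overlapped, with the CycW5 libraries spread more widely. EIF5A2, the less widely expressed copy of the factor eIF5A, had a low level, with 0.953 to 2.48 CPM and 0.792 to 2.31 CPM. EIF1B, a relative of the start-codon factor eIF1, had 55.5 to 80.1 CPM and 71.1 to 98.1 CPM, and its log2 fold change was -0.19 ± 0.0832.

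Among the elongation factors, EEF1B2, EEF1G, EEF2 and EEF1A2 were lower in the CycW5 cows, and EEFSEC, which places selenocysteine, was at -0.21 ± 0.0844 and did not pass. EEF1B2 and EEF1G, subunits of the complex that reloads eEF1A with GTP, were at -0.50 ± 0.113 and -0.47 ± 0.132. EEF2 had 1596 to 2683 CPM in the CycW5 cows (median 2025) and 2053 to 4170.0 CPM in the NoCycW5 cows (median 2559), at -0.37 ± 0.0896. EEF1A2, the form of eEF1A best known from muscle and nerve, stood apart from all other members. It had 0.670 to 11.4 CPM in the CycW5 cows (median 1.34) and 0.687 to 30.1 CPM in the NoCycW5 cows (median 4.46). Its log2 fold change of -2.17 ± 0.596 thus lay beside a within-group SD of 1.34 on the log2 scale, against 0.0919 to 0.393 for the other 15 factors.

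From week 5 to week 9, the NoCycW5 cows went from not having cycled to the luteal phase. All 29 ribosomal protein genes fell, where 16.1% of all genes tested fell, and the median of their log2 fold changes was -0.52 (-0.71 to -0.37) against -0.02 over all genes. This is the comparison that put 40 of the 45 genes on the study's list, and it is given as a description. RPL13 changed by -0.71 ± 0.0951, and the 3 smallest changes were those of RPL23, RPL37A and RPS27A (-0.42, -0.39 and -0.37). In 5 genes, RPL14, RPL19, RPL32, RPL34 and RPS3, every week 9 library was below every week 5 library, as was the case for 0.403% of all genes tested. RPL14, for instance, had 745.6 to 966 CPM at week 9 (median 803) after 1005 to 1609 CPM at week 5.

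Of the 16 factors, 14 fell and EIF2B2 rose (18.4% of all genes tested rose). EIF2B2 had 40.97 to 63.0 CPM at week 9 (median 51.9), a change of 0.29 ± 0.0858. EIF5A2 had 1.39 to 2.70 CPM and did not pass the test. The eIF3 subunits fell by 0.28 (EIF3G) to 0.47 (EIF3F), EIF4B by 0.25, EIF1B by 0.26 and EIF4H by 0.21 on the log2 scale, each less than the ribosomal protein with the median change. The eEF1 subunits and eEF2 fell by more: EEF1G by 0.71, EEF1B2 by 0.69 and EEF2 by 0.54. EEF1A2 had 0.111 to 2.47 CPM at week 9 (median 0.689), near the limit of what these libraries measure. Its change of -3.82 lay beside a within-group SD of 1.34 on the log2 scale, so its size is uncertain.

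**Figure D2:**
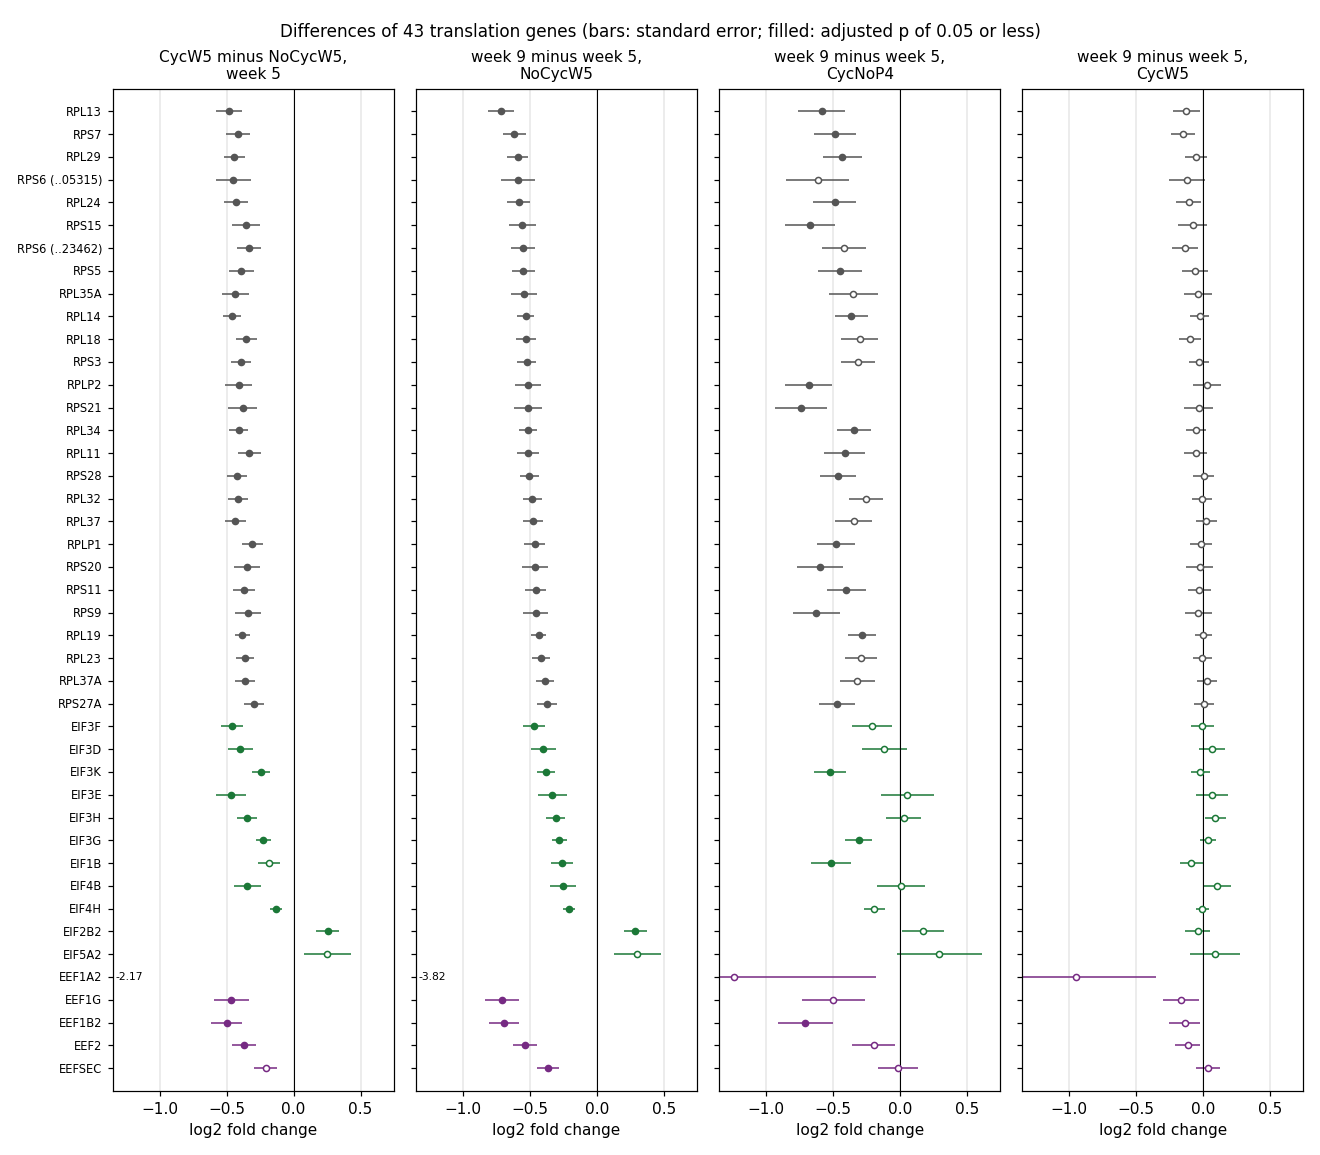
Log2 fold change (x axis) of 43 of the 45 genes in 4 comparisons, with its standard error as a bar; filled points passed the test. Ribosomal protein genes are grey, initiation factors green and elongation factors purple, ordered by the change in NoCycW5 cows, and 2 values of EEF1A2 beyond the axis are written as numbers. In the CycW5 cows (right) none of the genes drawn passed.

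In the CycW5 cows, which had P4 at both biopsies, no member passed the test from week 5 to week 9 (edgeR quasi-likelihood test), and 0.124% of all genes tested passed in either direction. No member had an unadjusted P under 0.05 there, against 2199 of the 16120 genes tested. DESeq2 called no member and 1.56% of all genes, and limma called 0 genes. Limma with quality weights called 4 members, where it called 18.7% of all genes. For the ribosomal protein genes the median was -0.03 (-0.16 to 0.06), with 22 of 29 below 0, and the factors one of -0.01. Between CycW5 and NoCycW5 cows at week 9 no member and none of the 16120 genes passed (0%, edgeR), although 934 genes, 1 of them a member, had an unadjusted P under 0.05. DESeq2 called 15 genes, limma 0 and limma with quality weights 1, none of them a member. All 29 ribosomal protein genes were nominally higher in the CycW5 cows, by 0.01 to 0.14 on the log2 scale. The change in NoCycW5 cows minus that in CycW5 cows was negative and passed the test for 27 of 29 ribosomal protein genes and 10 of 16 factors, against 2.72% of all genes tested. RPS9 and the RPS6 identifier ENSBTAG00000005315 were the 2 ribosomal protein genes that did not pass. This difference also rests on the week 5 libraries that chose the members.

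The CycNoP4 cows gave the comparison that did not enter the choice of the members, because the study used none of their libraries. From week 5 to week 9, 19 of 29 ribosomal protein genes fell (edgeR quasi-likelihood test, adjusted P of 0.05 or less), where 9.85% of all genes tested fell, and none rose. The median log2 fold change was -0.44 (range -0.74 to -0.25) for the ribosomal protein genes and -0.02 for all genes. With TMM scaling, all 3 libraries of week 9 were below all 4 of week 5 for each of the 29 ribosomal protein genes, as for 12.3% of all genes tested. The scaling bears on this count, since the TMM factors of the 4 week 5 libraries ran from 0.854 to 1.04 and those of week 9 from 0.998 to 1.05. On library totals without TMM, the libraries separated in 6 of the 29 genes (9.11% of all genes tested) and 8 of the 29 passed the test, where 6.41% of all genes fell. All 29 were still negative, with a median of -0.33. The count of calls moved with single libraries, as did the share of all genes called lower. From 23 members (19 ribosomal protein genes and 4 factors), it went to 13 without library 51 (4.64% of all genes) and to 11 without library 58 (7.88%) of week 5. It was 3 without library 79 (3.19%), 14 without library 88 (5.35%) and 9 without library 94 (3.84%) of week 9. A fit of these 7 libraries alone called 5 members and 4.01% of all genes.

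RPS21 (ENSBTAG00000020795), a small subunit protein, had the most negative change of the 29 ribosomal protein genes. It had 231.5, 224, 239 and 208 CPM in libraries 51, 56, 58 and 64 at week 5 and 137, 139 and 130.1 CPM in libraries 79, 88 and 94 at week 9 (log2 fold change -0.74 ± 0.193, adjusted P = 0.00914, edgeR quasi-likelihood test). The weeks are far apart here, and the same held for RPLP2 (ENSBTAG00000001777), a protein of the stalk by which the large subunit calls in elongation factors. RPLP2 had 453, 413, 424 and 411.5 CPM at week 5 and 286 CPM or less in the 3 libraries of week 9, with a mean of 265 CPM (-0.68 ± 0.178, adjusted P = 0.00899, edgeR). These genes, chosen for description after their values were seen, and EIF3K were the 3 members that passed the test in this comparison in all 17 fits that were run, with each other scaling, test and filter and with each library left out. RPL14 had 915, 954, 1043 and 973 CPM at week 5 and 726, 772 and 767 CPM at week 9 (-0.36 ± 0.123, adjusted P = 0.0319, edgeR) and passed in 10 of the 17 fits. RPL32, at the other end, had 491, 478, 535 and 562 CPM and then 397, 457 and 447.5 CPM, a change of -0.25 ± 0.129 that did not pass (adjusted P = 0.154, edgeR). The RPS6 identifier ENSBTAG00000005315 was at -0.61 but varied more between libraries and did not pass either (adjusted P = 0.0554, edgeR).

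The factors divided in these cows, where 9.85% of all genes tested fell. Of the 16, 4 fell: EEF1B2 (-0.71 ± 0.204, adjusted P = 0.015), EIF3K (-0.52 ± 0.122, adjusted P = 0.00514), EIF1B (-0.52 ± 0.15, adjusted P = 0.0153) and EIF3G (-0.31 ± 0.102, adjusted P = 0.0297, edgeR quasi-likelihood test). EIF3K had 139.5, 137, 134 and 131 CPM in libraries 51, 56, 58 and 64 and 85.0, 95.0 and 103 CPM at week 9. EIF3G had 151, 137.5, 129 and 134 CPM and then 108, 107 and 119 CPM, and EEF1B2 had 485, 436.5, 537 and 399 CPM and then 269, 306.5 and 278 CPM. The weeks did not overlap in these 3 of the 16 factors, and 12.3% of all genes tested fell without overlap. EIF1B was at 57.2 CPM in week 5 library 64, under all 3 libraries of week 9. EIF2B2 and EIF5A2 were again nominally higher at week 9, by 0.18 ± 0.157 and 0.29 ± 0.316, and did not pass.

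The other eIF3 subunits and EIF4B gave no such change: EIF3E was at 0.06 ± 0.199, EIF3H at 0.03 ± 0.129, EIF4B at 0.01 ± 0.177, EIF3D at -0.12 ± 0.169 and EIF3F at -0.21 ± 0.147. None passed, and a P that misses the threshold does not show that these 5 were level. At week 5 they split the 4 libraries into pairs. EIF3E had 387 and 402 CPM in libraries 51 and 56, and 661 and 812 CPM in libraries 58 and 64. EIF4B had 288 and 356.5 CPM and then 577 and 678.5 CPM in the same libraries, and EIF3H had 191 and 201 CPM and then 267 and 258 CPM. EIF3K and EIF3G, subunits of the same complex, differed little between these pairs and were slightly higher in libraries 51 and 56. RPS21 and RPLP2 did not separate the pairs. RPL14, RPL32 and the sum of the ribosomal protein genes did, and were lower in libraries 51 and 56. The epithelial marker genes KRT8, EPCAM and CLDN4 (3 of 6 on the list were found) summed to 882 and 695 CPM in libraries 51 and 56 and to 461 and 496 CPM in libraries 58 and 64, opposite to EIF3E. The endothelial markers CDH5 and VWF (2 of 4 found) summed to 241 and 223 CPM and then to 354 and 361 CPM. The part of the cell mixture in the split was not tested.

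**Figure D3:**
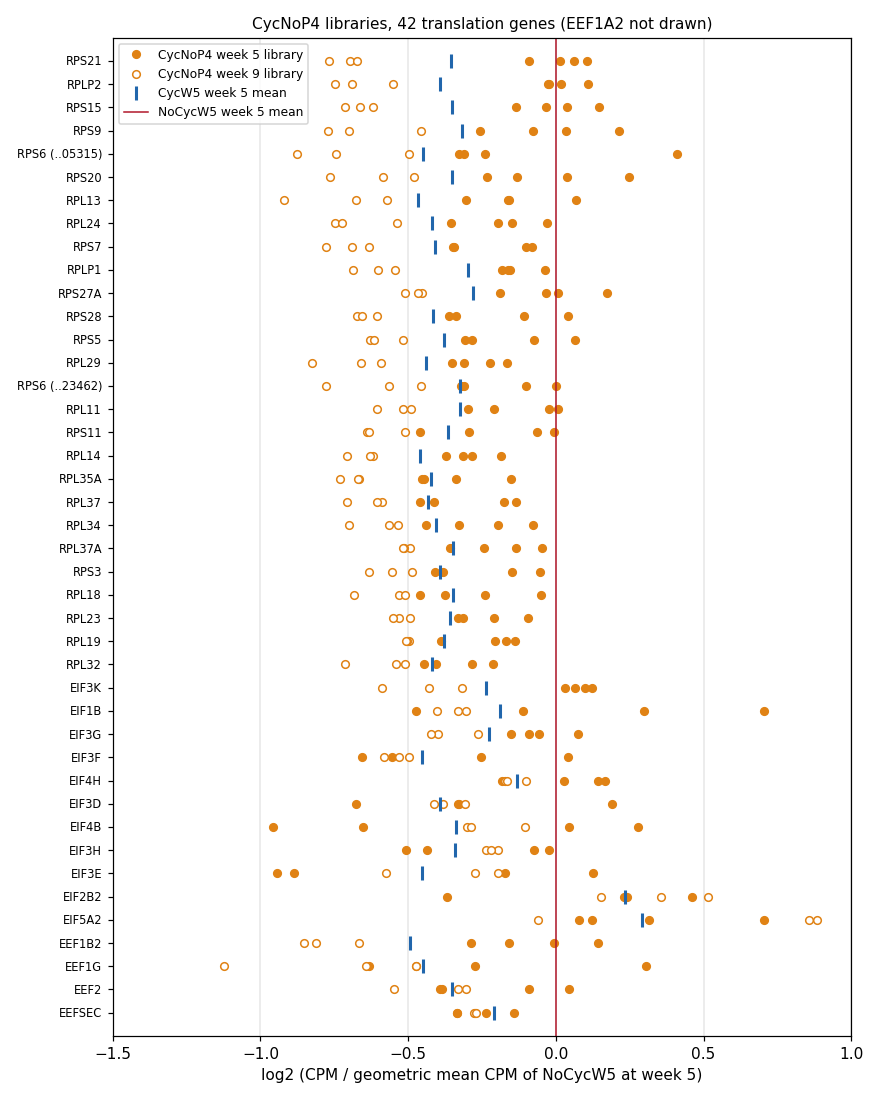
Each CycNoP4 library (filled at week 5, open at week 9) as log2 of its CPM over the geometric mean of the NoCycW5 libraries of week 5, for 42 of the 45 genes; the blue tick is the CycW5 mean at week 5. In the ribosomal protein genes (upper rows, ordered by their change) every open point lies left of every filled point, and at the top, from RPS21 down, the filled points lie around 0. Those of EIF3E and EIF4B spread widely, from 387 to 812 CPM and from 288 to 678.5 CPM.

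Set against the other cows at week 5, the CycNoP4 cows had ribosomal protein gene levels in between. All 29 ribosomal protein genes were nominally lower than in the NoCycW5 cows (median log2 fold change -0.21, lowest -0.37) and nominally higher than in the CycW5 cows (median 0.17, range 0.06 to 0.41). Against the NoCycW5 cows, RPL14, RPL19, RPL32, RPL34 and RPL37 passed the test (5 of 29, with 6.52% of all genes tested lower), as did EIF3F among the factors. Against the CycW5 cows, RPLP2 passed (1 of 29, with 9.62% of all genes tested higher), and EIF3K, EIF1B and EIF4H among the factors. These 2 comparisons share the CycNoP4 libraries, and each uses libraries that chose the members. Both the member counts and the share of all genes called moved with single libraries. Without CycNoP4 library 51 or library 56 no member was lower than in the NoCycW5 cows (0.186% and 1.22% of all genes), and without library 64 there were 13, 8 of them ribosomal protein genes (13.7%), while EIF2B2 and EIF1B were higher. Leaving out any of 5 single NoCycW5 libraries left 3 (4.85% to 6.38%), library totals without TMM gave 15 (8.18%), and a fit of the compared groups alone gave 0 (1.81%). Against the CycW5 cows, leaving out library 51 left no member (3.46% of all genes higher), library 56 left 2 (5.61%), library 58 left 1 (6.63%) and library 64 left 7 (13.8%). Leaving out CycW5 library 59 gave 8 (9.19%), and library totals without TMM gave 0 (5.42%).

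The position relative to the other groups differed from gene to gene. RPS21, RPLP2, RPS15, RPS27A, RPS20 and RPS9 lay within 0.04 of the NoCycW5 mean on the log2 scale, whereas RPL35A, RPL18 and RPL32 lay within 0.08 of the CycW5 mean. Of the 29 ribosomal protein genes, 13 were nearer to the NoCycW5 and 16 nearer to the CycW5 cows, and of the 16 factors 5 and 11. EIF3K was slightly above the NoCycW5 mean (0.07 ± 0.0908) and EIF3E near the CycW5 mean (0.05 ± 0.154), although both encode subunits of eIF3. Against the mean of the other groups at week 9, no member and no gene passed in the CycNoP4 cows (0%, edgeR), and 959 genes, none of them a member, had an unadjusted P under 0.05. DESeq2 called 1 gene higher and 14 lower there, no member among them, and limma called 0. All 29 ribosomal protein genes were nominally lower there, with a median of -0.16.

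**Figure D4:**
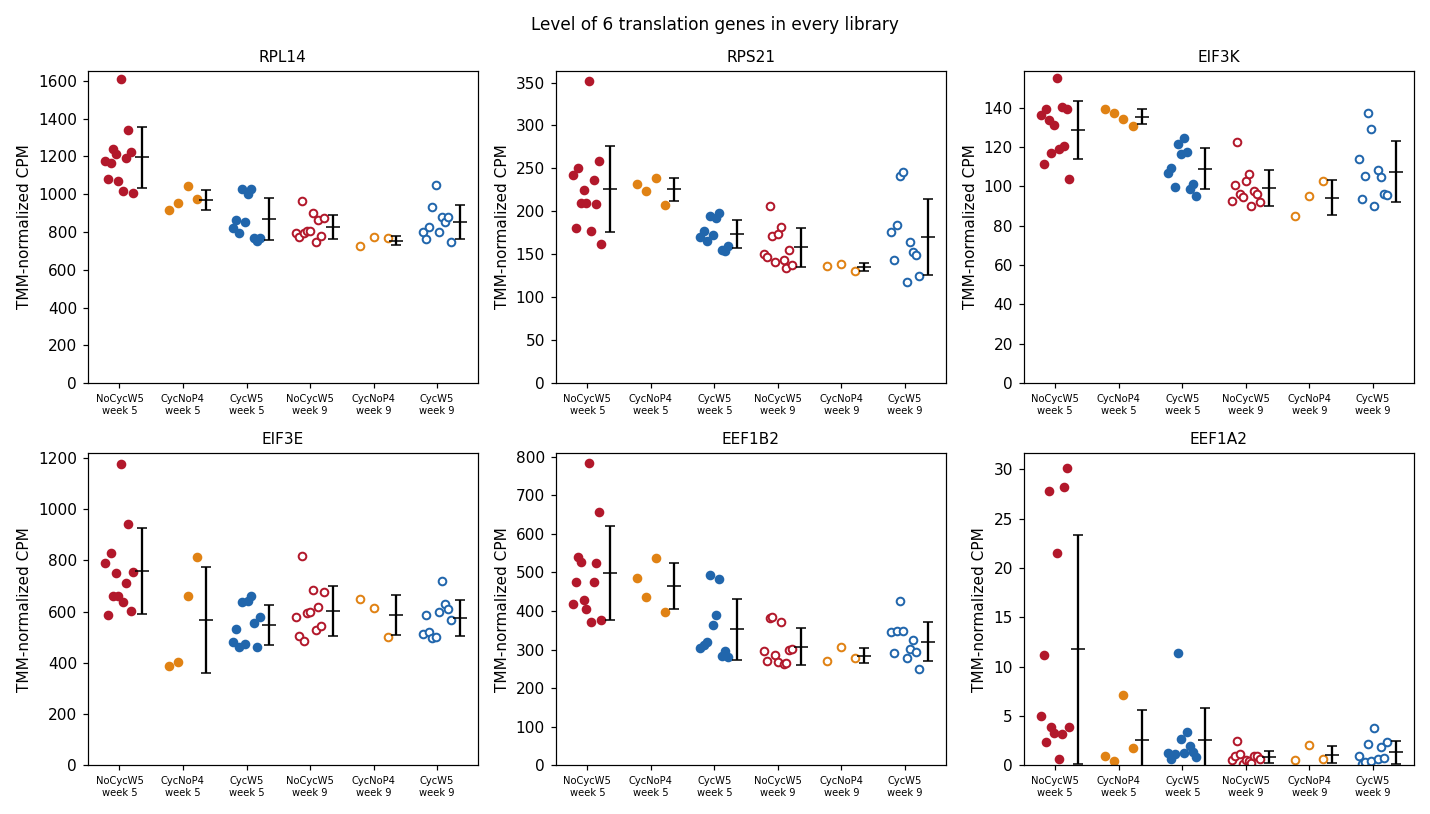
Level, in TMM-normalized CPM, of RPL14, RPS21, EIF3K, EIF3E, EEF1B2 and EEF1A2 in each library, by group (filled at week 5, open at week 9), with the mean and SD. RPS21 and EIF3K in the CycNoP4 cows go from 208 CPM or more and 131 CPM or more at week 5 to 139 CPM or less and 103 CPM or less at week 9, and EEF1A2 reaches 30.1 CPM only at week 5 in the NoCycW5 cows.

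Within groups, the members also varied together. After the group means were taken out, the median Pearson correlation over the 50 libraries was 0.793 between pairs of ribosomal protein genes (406 pairs, range 0.448 to 0.943). All values of a library share its scaling and its mix of cells, so this is a description. The median correlation of a gene with the ribosomal protein members was -0.0114 over the 16091 other genes tested. Among the factors, it was 0.784 for EIF3K, 0.733 for EEF1G, 0.724 for EEF1B2, 0.667 for EIF3F and 0.657 for EEF2, near the ribosomal protein genes themselves, whose own medians reached 0.869 (RPL29). It was 0.529 for EIF3D, 0.51 for EIF3G, 0.436 for EIF3E, 0.435 for EIF4B and 0.413 for EIF3H. EIF4H had 0.332, EEF1A2 0.322, EIF1B 0.209 and EEFSEC 0.11, and EIF5A2 and EIF2B2 were negative, at -0.113 and -0.287.

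Cell type markers could be followed only where the study's lists of differentially expressed genes named them. RNA levels of the markers found also differed between these groups, which describes that choice, and markers outside the lists were not seen. The 3 epithelial markers summed to 225 to 449 CPM at week 5 in the NoCycW5 cows (median 334) and to 323 to 1177 CPM in the CycW5 cows (median 506), and to 365 to 1195 CPM at week 9 in the NoCycW5 cows (median 893). The 2 endothelial markers went the other way at week 5, with 218 to 589 CPM in the NoCycW5 cows (median 386) and 149.7 to 310.2 CPM in the CycW5 cows (median 255). Their part in the lower translation gene levels of these groups was not tested. In the CycNoP4 cows, the epithelial sum was 461 to 882 CPM at week 5 and 468 to 983 CPM at week 9, and the weeks overlapped.

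Other genes of protein synthesis could be followed only where the study's lists named them, so their counts too describe a choice made on these libraries. A further 19 identifiers were named as translation genes only by their description, of which 17 were ribosomal protein genes. All 17 were lower in the CycW5 than in the NoCycW5 cows at week 5 (median -0.39), where 11.1% of all genes tested were lower. All 17 fell in the NoCycW5 cows (median -0.48), where 16.1% of all genes fell. In the CycNoP4 cows 6 fell (median -0.31), where 9.85% of all genes fell. RPL8 fell in the CycNoP4 cows by 0.74 on the log2 scale, and both identifiers named RPL17 were at 0.03 ± 0.137 and 0.04 ± 0.115. EEF1D, the partner of EEF1B2 in the eEF1 complex, fell by 0.74 as well (adjusted P = 0.0035, edgeR), whereas EIF2S3, a subunit of eIF2, was at -0.13 ± 0.143.

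Of the mRNA outside the ribosome that are known to begin with a pyrimidine tract, 10 of 14 were found, 7 of them members. All 10 were lower in the CycW5 cows at week 5 (11.1% of all genes tested) and all 10 fell in the NoCycW5 cows (16.1%). Of these, 2 (EEF1B2 and EEF1D) fell in the CycNoP4 cows (9.85% of all genes tested). RACK1, a protein on the small subunit, was at -0.45 ± 0.104, -0.70 ± 0.101 and -0.33 ± 0.185 in these comparisons, and the poly(A)-binding protein gene PABPC1 at -0.36 ± 0.0894, -0.26 ± 0.0869 and -0.28 ± 0.16. The regulators MTOR and LARP1, which control such mRNA, did not pass the test in any of these 3 comparisons, and were higher in the CycNoP4 than in the NoCycW5 cows at week 5, by 0.26 and 0.34 on the log2 scale. Of the 7 genes of ribosome biogenesis found (of 20 on the list), 4 were lower in the CycW5 cows (11.1% of all genes tested). In the NoCycW5 cows 5 fell (16.1%), and in the CycNoP4 cows 4 fell (9.85%). FBL, the methyltransferase of ribosomal RNA, was at -0.22 ± 0.149, -0.53 ± 0.145 and -1.21 ± 0.273, and RRS1, an assembly factor of the large subunit, at -0.16 ± 0.147, -0.43 ± 0.144 and -1.20 ± 0.271. In the CycNoP4 cows, FBL had 43.5 to 109.6 CPM at week 5 and 35.7 CPM or less at week 9, and RRS1 had 13.0 to 70.6 CPM and 13.1 to 17.4 CPM, with a wide spread at week 5 and overlapping weeks. ABCE1, which recycles ribosomes after termination, was at 0.05 ± 0.103, -0.11 ± 0.101 and -0.77 ± 0.188 in the same comparisons.

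Ribosomes of the mitochondrion are separate particles. Genes were put on their list by symbol alone, so a listed gene such as MRPS36 need not encode a protein of these ribosomes. Listed genes were followed only where the study's lists named them. Those found went in both directions, which says nothing of the genes not found. Of the 7 found, 3 had higher levels (14.5% of all genes tested) and 2 had lower levels (11.1%) at week 5 in the CycW5 cows. In the NoCycW5 cows 4 rose (18.4%) and 2 fell (16.1%). MRPS36 had 23.4 to 54.8 CPM at week 5 in the NoCycW5 cows (median 30.01) and 32.2 to 1244 CPM in the CycW5 cows (median 478), at 4.11 ± 0.486. MRPL19 had 29.2 to 44.1 CPM (median 36.7) and 35.8 to 106 CPM (median 91.5), at 1.23 ± 0.181, and MRPL32 was at 0.93 ± 0.159. In the CycNoP4 cows, MRPS36 went from 28.9 to 50.2 CPM at week 5 to 190.4 to 602 CPM at week 9 (3.14 ± 0.819, adjusted P = 0.0089, edgeR), and MRPL19 rose by 1.02 ± 0.32 (adjusted P = 0.0223, edgeR), while MRPL32 did not pass. MRPS18B rose in the NoCycW5 cows by 0.21 ± 0.0761, and was at 0.14 ± 0.0816 in the CycW5 cows, where it did not pass.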

How the data were processed

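Total RNA was made into stranded poly(A) libraries, and the authors deposited counts of reads per gene, without normalization, for 18830 genes in 50 libraries. Their processing notes name HISAT2, StringTie and edgeR and the UMD3.1 build; the strand setting and the treatment of reads that match several genes are not given in the sources used here. Symbols came from the study's supplementary lists, because the reference table used here (ARS-UCD2.0) held 0 Ensembl identifiers; no coordinates or sequences were used. The members and all gene lists were chosen with earlier results of these data known. Named genes were all factors, the 3 most and the 3 least negative ribosomal protein genes in the week 5 comparison and in the NoCycW5 week change, RPL14, RPL19 and RPS6, and at most 4 genes per wider list that went the opposite way; others were chosen after their values were seen, and some named genes are not reported here. A single edgeR 4.0.16 quasi-likelihood fit (TMM, filterByExpr, R 4.3.3) over all 6 groups tested 16120 genes with Benjamini-Hochberg adjustment at 0.05. In simulated counts, 100 randomly drawn genes per fold were changed in a single group and all others were left level. There the fit found 13% of 1.5-fold and 48% of 2-fold changes between weeks in CycNoP4 cows, so many changes could be missed. It found 46% and 74% for the week change in NoCycW5 cows, and 52% and 74% for CycW5 against NoCycW5 cows at week 5. The drawn genes had any level and far more genes differed in the data, so these are not rates for the members. The cow and microbiota terms of the study's limma model could not be fitted, as the labels give neither. Alternatives were limma 3.58.1, DESeq2 1.42.0, other scalings and filters (1 CPM in 10 libraries), a fit of the compared groups alone and leaving out each library. No pair of libraries was a repeat (lowest mean chi-square per gene 28.2, where sampling noise gives 1).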

Additional observations from a re-analysis of the deposited data

Results flagged for a closer look

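The change from week 5 to week 9 in NoCycW5 cows differed from that in CycW5 cows, by the test of the difference itself (edgeR quasi-likelihood test), in 27 of the 29 ribosomal protein genes and 10 of the 16 factors. All of these differences were negative, where 2.72% of all genes tested passed with a negative difference. The difference (NoCycW5 minus CycW5, log2) was -2.87 for EEF1A2, -0.56 for EEF1B2, -0.42 for EEF2 and -0.40 for EEFSEC among the elongation factors. Among the initiation factors it was -0.47 for EIF3D, -0.46 for EIF3F, -0.40 for EIF3H, -0.36 for EIF3K, -0.32 for EIF3G and -0.20 for EIF4H. Among the ribosomal protein genes named by rule it was -0.59 for RPL13, -0.51 for RPL14, -0.46 for RPL11, -0.45 for RPLP1, -0.44 for RPL19, -0.42 for RPS6 (ENSBTAG00000023462), -0.41 for RPL23, -0.41 for RPL37A and -0.38 for RPS27A. The members were chosen on part of these libraries.

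In 84 groups of libraries examined, 4 had a library far from the others, which is near the 1 in 20 that chance gives. Only the CycW5 groups and the CycNoP4 libraries of week 5 were examined. The NoCycW5 groups and the CycNoP4 libraries of week 9 were not, so outlying libraries there would not be seen. EEF1A2 was at 11.4 CPM in CycW5 library 52 of week 5, where the next library was at 3.35 CPM. In the CycW5 cows at week 9, library 89 had 157 CPM of EIF3G (next 135), and library 87 had 176 CPM of RPS6 ENSBTAG00000005315 (next 117.5). The same RPS6 identifier was at 214 CPM in CycNoP4 library 58 of week 5, where the next library was at 136 CPM.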

How the results depend on the processing

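The share of all genes called, in the direction counted, is given in brackets. In the CycNoP4 cows, 23 members fell from week 5 to week 9 (9.85%), against 11 on library totals without TMM (6.41%), 5 in a fit of these groups alone (4.01%), and 3 to 20 with 1 library left out (3.19% to 13.8%). Against NoCycW5 cows at week 5, 6 members were lower in CycNoP4 cows (6.52%), against 3 with DESeq2 size factors (5.91%), 15 on library totals (8.18%), 3 with at least 1 CPM in 10 libraries (6.65%), 0 with the compared groups alone (1.81%), and 0 to 15 called with 1 library left out (0.186% to 13.7% of all genes lower), of which 2 of the 15 were higher. Against CycW5 cows, 4 were higher (9.62%), against 0 on library totals (5.42%), 2 with limma-voom (8.28%), 7 with quality weights (1770 of 16120 genes), and 0 to 8 with 1 library left out (3.46% to 13.8%). For the week change in CycW5 cows, limma-voom with quality weights called 4 members (18.7%) and the other settings 0 (at most 2.52%). With 1 library left out, 40 to 43 members differed between CycW5 and NoCycW5 cows at week 5 (20.3% to 29.7%), 43 to 44 changed in NoCycW5 cows (30.2% to 37.4%) and 29 to 40 changed differently in the 2 groups (4.82% to 13.5%). The class medians moved by less than the spread between libraries in every setting run. The causes were not tested.

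Some factors that did not pass in the CycNoP4 cows changed sign. The log2 fold change of EIF3D was 0.041 with quality weights, that of EIF4B -0.0071 with DESeq2 size factors, -0.0071 with DESeq2 and -0.0089 with the compared groups alone, and that of EEFSEC 0.11 on library totals and 0.0096 with quality weights. With 1 library left out, it ran from -0.23 to 0.069 for EIF3D, from -0.089 to 0.28 for EIF3E, from -0.051 to 0.11 for EIF3H, from -0.17 to 0.23 for EIF4B, from -2.14 to 0.048 for EEF1A2 and from -0.043 to 0.029 for EEFSEC.

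No paired analysis was possible because the labels do not link libraries to cows, and replicate numbers only follow the order of deposit. With 4 and 3 libraries, changes in CycNoP4 cows are the least certain. The planned search for pyrimidine tracts was not run, as no promoter sequences were used here.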
